A study of Homo sapiens with 15 samples.

Results

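The loci of 10 forkhead transcription factors were described in ATAC-seq peak lists of a human kidney cell line with and without SETD2. The genes, FOXA1, FOXA2, FOXC1, FOXC2, FOXD1, FOXF1, FOXF2, FOXL1, FOXO1 and FOXQ1, were picked from the forkhead family because the DNA motif bound by its members was enriched in regions that gained a peak on loss of SETD2 and lost it on re-expression. They are 10 of 19650 protein-coding loci with a peak in at least 1 library. A locus was the gene body in GENCODE 44 with 20 kb on each side, in hg38. The choice of the genes used the comparisons of KO with WT and of rescue with KO, so these were described with no test.

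ATAC-seq marks DNA that the Tn5 transposase can reach. The cells were RPTEC, renal proximal tubule epithelial cells immortalised with hTERT. SETD2, which deposits H3K36me3, was disrupted by CRISPR/Cas9 and error-prone repair. There were 15 libraries in 5 groups of 3, namely unedited cells (WT), 2 clones labelled as SETD2 knockouts (KO1, KO2) and 2 clones with SETD2 put back (Rescue1, Rescue2), which carry a lentiviral full-length FLAG-tagged SETD2 in knockout cells. Each knockout or rescue group is 1 clone, and both rescue clones carry the clone code of KO2, so the comparison of rescue with KO2 alone was also made. The peak lists hold no genotype, and the edit could not be checked in them.

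Forkhead factors bind DNA through a winged-helix domain and recognise variants of a short T-rich core. FOXA factors are known as pioneer factors that bind nucleosomal DNA in endoderm, FOXC, FOXF and FOXL1 act in mesenchyme and mesoderm, FOXD1 marks stromal progenitors of the developing kidney, and FOXO1 is held in the cytoplasm by AKT signalling. FOXQ1 is known for its part in epithelial plasticity. Several of these genes lie in clusters: FOXQ1, FOXF2 and FOXC1 follow each other on chromosome 6, and FOXF1, FOXC2 and FOXL1 on chromosome 16, where the windows of FOXC2 and FOXL1 overlap.

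The lists held 196969 to 265193 peaks per library on the main chromosomes, covering 49.4 to 65.2 Mb. The WT lists covered a mean of 51.7 Mb ± 3.91 (SD, n = 3), the KO lists 55.9 ± 3.13 (n = 6) and the rescue lists 58.3 ± 5.36 (n = 6). No pair of lists shared more than 0.131% of intervals exactly, so no 2 lists were taken to be one library. A peak within 1 kb of the start was called in all 15 libraries for the kidney epithelial genes PAX8, SLC34A1, CDH16 and CDH6, and in none for HNF4A, CUBN and AQP1. Among other kidney markers, LRP2 had one in 14 libraries, PAX2 in 5 and GGT1 in the 3 WT libraries only. Of 5 epithelial markers, EPCAM, KRT8, KRT18 and KRT19 had one in all 15 and CDH1, which encodes E-cadherin, in the 3 WT libraries and 1 KO2 library. The blood markers PTPRC and CD3E had none. The endothelial markers were split, with none for PECAM1 and one in all 15 for CDH5. The stromal markers COL1A1, PDGFRB and ACTA2 had one in all 15. Their part in the results below was not tested.

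The sequences below come from regions described further on. The first is the only region of these loci with a peak in each of the 6 KO libraries and none in WT or rescue. The second is the stretch of FOXF2 that all 6 KO libraries, but none of WT, had under a peak. The next 2 are the regions of the FOXF2 window that hold a forkhead motif, with TGTTTAC in capitals. The last 2 are the region near FOXL1 with peaks in the rescue clones alone and the region downstream of FOXA2 where the knockout clones differed. The FOXL1 peaks were weak, and no run of at least 50 bases was under a peak in all rescue libraries. All but the first were chosen after their values were seen. They are read from the hg38 plus strand, 5′ to 3′.
FOXC1 +1.7 kb, chr6:1611541-1611740: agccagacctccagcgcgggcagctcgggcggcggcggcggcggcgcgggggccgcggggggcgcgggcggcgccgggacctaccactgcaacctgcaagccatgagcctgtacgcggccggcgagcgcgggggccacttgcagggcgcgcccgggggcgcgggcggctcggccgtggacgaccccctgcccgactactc
FOXF2 +1.3 to +1.6 kb, chr6:1390913-1391136: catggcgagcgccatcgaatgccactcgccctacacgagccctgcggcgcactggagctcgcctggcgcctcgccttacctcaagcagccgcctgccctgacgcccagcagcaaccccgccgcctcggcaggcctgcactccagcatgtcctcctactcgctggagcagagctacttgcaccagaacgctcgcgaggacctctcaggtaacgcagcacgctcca
FOXF2 +7.5 kb, chr6:1397016-1397215: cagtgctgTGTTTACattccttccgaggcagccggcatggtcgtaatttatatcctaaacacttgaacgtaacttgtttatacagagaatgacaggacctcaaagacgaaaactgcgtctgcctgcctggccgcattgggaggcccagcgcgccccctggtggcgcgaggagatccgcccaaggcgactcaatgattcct
FOXF2 +18.3 kb, chr6:1407749-1407948: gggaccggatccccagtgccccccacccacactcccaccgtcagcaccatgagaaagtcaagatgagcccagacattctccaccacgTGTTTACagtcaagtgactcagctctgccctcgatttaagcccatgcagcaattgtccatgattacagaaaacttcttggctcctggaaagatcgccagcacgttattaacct
FOXL1 +0.7 kb, chr16:86577009-86577208: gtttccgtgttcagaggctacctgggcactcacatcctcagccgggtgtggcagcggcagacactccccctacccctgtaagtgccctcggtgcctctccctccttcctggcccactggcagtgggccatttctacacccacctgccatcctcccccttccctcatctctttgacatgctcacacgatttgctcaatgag
FOXA2 +10.0 kb, chr20:22575330-22575529: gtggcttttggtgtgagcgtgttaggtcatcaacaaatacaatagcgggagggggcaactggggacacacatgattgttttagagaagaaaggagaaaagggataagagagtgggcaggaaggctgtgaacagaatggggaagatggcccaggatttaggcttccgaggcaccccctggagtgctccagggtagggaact

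FOXF2 and FOXQ1 had more bases under peaks in all 6 KO libraries than in any WT library. FOXF2 encodes a mesenchymal factor downstream of hedgehog signalling. The FOXF2 window (chr6:1369576-1415603, gene on the plus strand) held 1611, 1064 and 1173 bases under peaks in WT replicates 1 to 3. It held 2589, 2838 and 2587 in KO1 and 2448, 2777 and 2650 in KO2. In Rescue1 the values were 2219, 2163 and 2338, and in Rescue2 2707, 2523 and 2331. The 12 knockout and rescue libraries all lay above the 3 WT libraries, and the 3 Rescue1 libraries lay below all 6 KO libraries, whereas Rescue2 overlapped with KO. The KO mean was 2648 ± 141 (SD, n = 6) against 1283 ± 290 (n = 3) in WT, a 2.06-fold difference of 1365 bases. That difference lay at the 96.3rd percentile of all loci.

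FOXQ1 (window chr6:1292098-1334758, plus strand) held 2347, 1689 and 2050 bases in WT, 2654, 3005 and 3020 in KO1 and 2575, 2934 and 3044 in KO2. The KO mean of 2872 ± 204 was 1.42-fold the WT mean of 2029 ± 330, again with no overlap. Rescue1 held 2516, 2648 and 2784 bases and Rescue2 2634, 3154 and 1982, so Rescue1 lay above WT while 1 Rescue2 library lay within the range of WT. Across all loci 13.3% had every KO library above every WT library and 11.9% the opposite, against 2 and 0 of the 10 forkhead loci. The median difference over the 10 was -3.42 bases, beside -9.25 over all loci, and 5 of the 10 means were higher and 5 lower in KO.

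**Figure D1:**
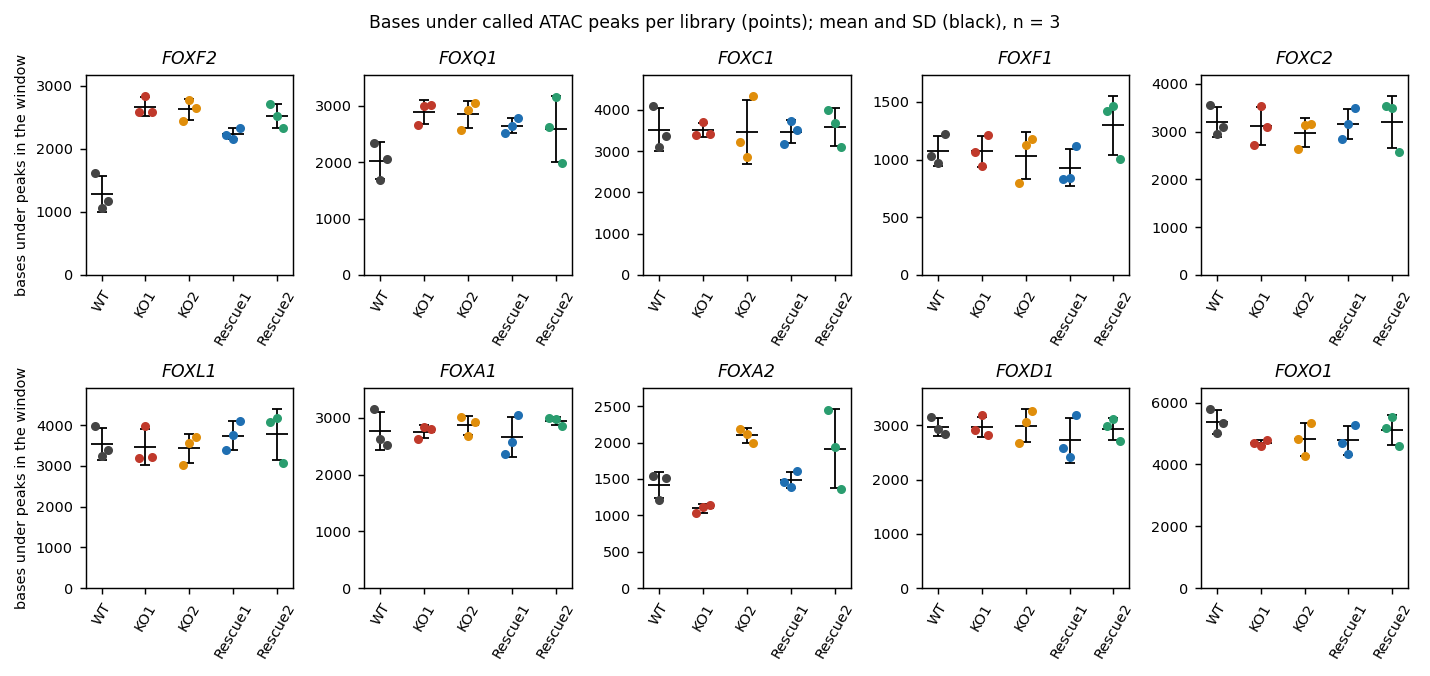
Bases under called peaks in the window of each gene (y axis, from 0) for the 15 libraries by group (x axis). Points are libraries and black marks the mean and SD of the 3 libraries. At FOXF2 the KO and rescue libraries, from 2163 to 2838, sit above the WT libraries, from 1064 to 1611. At FOXA2 KO1 lies below and KO2 above WT.

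The extra bases at FOXF2 were spread over several regions and included a peak inside the gene. Merged regions are unions of peaks of any library that share at least 1 bp. Of the 8 regions in the FOXF2 window, 5 had more bases in all KO libraries than in all WT libraries, and 4 of the 8 had more in all rescue than in all WT libraries. The region over the FOXF2 start held 924, 547 and 481 bases under peaks in WT, 1160 to 1451 in KO and 1022 to 1547 in rescue. Within it, 12 of 12 KO and rescue libraries had a peak that began 1129 to 1353 bases and ended 1560 to 1662 bases downstream of the start, and no WT library had one. Its width ranged from 259 to 488 bases with a median of 304. The 224-base run printed above, chr6:1390913-1391136, was covered by all 6 KO libraries, and its middle lies in a coding exon of FOXF2. Neighbouring peaks were joined in the merged region, so that this peak was found only base by base, an analysis added after the data were seen.

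The fold enrichment of a peak, the ratio of signal at its summit to the background nearby, was ranked within each list. At the FOXF2 start the strongest peak ranked at the 37.0th to 55.7th percentile in WT, the 23.4th to 36.8th in KO and the 42.4th to 57.9th in rescue. The peak inside FOXF2 that WT lacked ranked at the 12th to 35.6th percentile in KO and the 26.2nd to 57.9th in rescue. The lists differ in length, so these ranks are a description within each list and were not compared between groups. Downstream of FOXF2, the intergenic region at +17.2 kb (chr6:1406599-1407044) had no peak in WT and Rescue1, 205, 317 and 379 bases in KO1, 165, 139 and 159 in KO2, and 76, 83 and 0 in Rescue2. The region at +18.3 kb, which holds TGTTTAC, had a peak in 2 KO1, 3 KO2, 1 Rescue1 and no WT or Rescue2 libraries. The region at +7.5 kb, which also holds TGTTTAC, had a peak in all 15 libraries, with 148, 176 and 208 bases in WT and 247 to 270 in KO. At +14.8 kb WT had 0, 78 and 85 bases and KO 127 to 261. The regions at +7.5, +14.8 and +18.3 kb were chosen after their values were seen.

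At FOXQ1 the groups overlapped over the start and differed further into the gene. The start region held 563 to 755 bases in WT, 597 to 661 in KO and 603 to 682 in rescue. The coding-exon region at +1.6 kb (chr6:1313370-1313951) held 208, 224 and 309 bases in WT, 416 to 528 in KO and 203 to 397 in rescue. Here all 6 KO libraries were above all WT and all rescue libraries. A region at +0.7 kb had a peak in no WT, 2 KO1, 3 KO2, 1 Rescue1 and 1 Rescue2 library. A region at +1.1 kb had one in no WT or KO1 library, all 3 KO2 libraries and 2 of 3 in each rescue clone. Upstream, at -15.4 kb, KO held 159 to 270 bases, WT 113 to 157 and rescue 0 to 138. The FOXQ1 regions at +1.1, +1.6 and -15.4 kb were chosen after their values were seen.

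**Figure D2:**
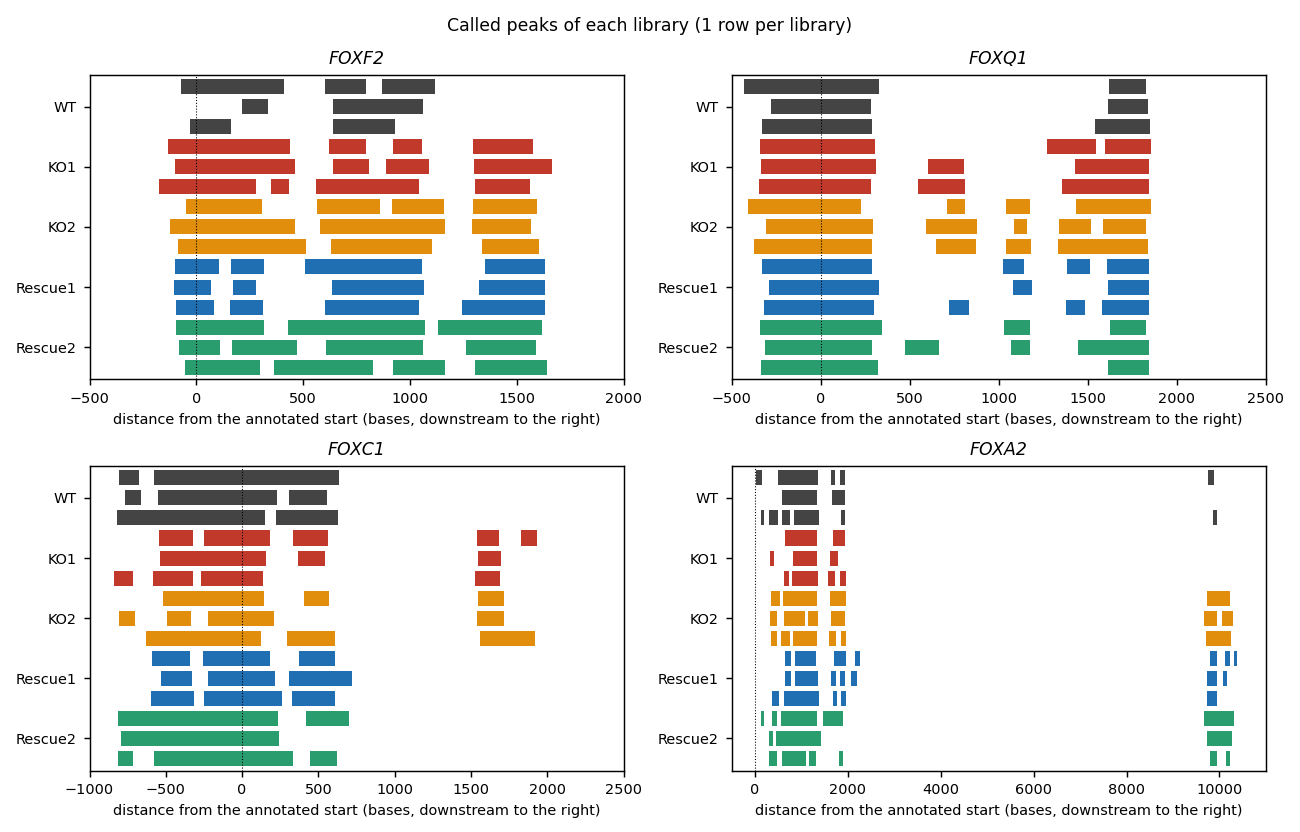
Called peaks (bars) of the 15 libraries, 1 row each, by distance in bases from the annotated start of FOXF2, FOXQ1, FOXC1 and FOXA2. The peak ending 1560 to 1662 bases into FOXF2 is present in the 12 KO and rescue rows and absent from the 3 WT rows. The peak near +1.6 kb of FOXC1 is present in the 6 KO rows alone.

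The FOXC1 window held a region with peaks in the knockout alone, while its start was narrower there. FOXC1 is needed for the anterior eye and for vessel and kidney development. The region (chr6:1611438-1611843, middle at +1.7 kb in the coding exon) had 249, 148 and 169 bases under a peak in KO1 and 174, 175 and 360 in KO2, and no peak in WT, Rescue1 or Rescue2. Of 109 regions at the loci, this was the only one with a peak in all KO libraries and no other (0.917%). Over the genome the share was 0.818%. The run shared by all KO libraries was 125 bases long. These peaks were weak: their median rank by fold enrichment was the 2.83rd percentile of their lists (1.63 to 15). The call ended with lists of 150000 peaks each and where at least 50% of the region had to be under peaks. The same gene showed the opposite at its start. The region over the FOXC1 start held 1344, 1140 and 1381 bases in WT, 877, 877 and 793 in KO1, and 834, 699 and 1074 in KO2. All KO libraries lay below WT. In Rescue1 it held 927, 1065 and 1070, and in Rescue2 1333, 1034 and 1189. Rescue1 lay within the range of KO, and Rescue2 overlapped with both KO and WT. Over the whole FOXC1 window (chr6:1589915-1633897) WT, KO and rescue did not differ beyond their spread, with 3526 ± 514, 3494 ± 501 and 3535 ± 346 bases.

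FOXO1, a target of insulin and AKT signalling, is the longest of the 10 genes, and its window held 33 regions with a peak in at least 2 libraries. Its window (chr13:40535667-40686641, minus strand) had 5782, 5023 and 5332 bases in WT, 4677, 4586 and 4804 in KO1, and 4820, 4261 and 5345 in KO2. KO and WT overlapped in 1 library, KO2 replicate 3, and no longer overlapped without it. Rescue1 held 4703, 4336 and 5287, and Rescue2 5184, 5540 and 4587. Per Mb of each list's own coverage, all KO and all rescue libraries lay below all WT libraries, with means lower by 19.2 and 19.3 bases per Mb. The WT lists had the lowest mean coverage, which this scaling divides by. No share of all loci is given under this scaling, so the separation is not read as particular to FOXO1. The 4 intronic regions, at +68.7, +68.5, +34.8 and +21.2 kb, had a peak in all 3 WT and no KO library. The first 3 had none in rescue either. The pair at +68.7 and +68.5 kb had 107 to 187 and 118 to 129 bases in WT. The intronic region at +42.1 kb had the reverse pattern, with no peak in WT and one in all 12 other libraries, of 114 to 188 bases. The region at +1.9 kb, chosen after its values were seen, was narrower in KO, at 616 to 724 bases against 838 to 982 in WT. Rescue held 539 to 844, and 1 Rescue1 library reached the range of WT.

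FOXA2, a regulator of endodermal organs, separated the knockout clones. Its window (chr20:22560998-22605455, minus strand) held 1535, 1215 and 1507 bases in WT. All 3 KO1 libraries, with 1027, 1119 and 1138, lay below WT, and all 3 KO2 libraries, with 2184, 2121 and 1988, lay above it. KO1 minus KO2 was -1003 bases, from means of 1095 ± 59.4 and 2098 ± 100 (n = 3 each). In an exact two-sided permutation test p was 0.1, the smallest that 3 against 3 allows, and 0.559 after adjustment over all loci. Rescue1 held 1455, 1390 and 1605, and Rescue2 2444, 1940 and 1365. The widest gap between the clones, a region chosen after its values were seen, lay at +10.0 kb, in an intron of the non-coding gene LINC00261. That region (chr20:22575070-22575789) held 141, 0 and 85 bases in WT, none in KO1, 477, 511 and 535 in KO2, 305, 309 and 228 in Rescue1, and 657, 555 and 226 in Rescue2. All libraries of both rescue clones, which carry the code of KO2, had a peak in this region, as did 2 of the 3 WT libraries. Whether descent from KO2 plays a part was not tested. The region inside the gene at +0.9 kb also had fewer bases in KO1, at 603 to 672, than in KO2, at 815 to 934.

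FOXA2 was the only one of the 10 loci where KO1 and KO2 did not overlap, beside 17.9% of all loci. Rescue1 and Rescue2 overlapped at all 10, beside 15.9% of loci where they did not. Without replicate 3 of either rescue clone 4 loci did not overlap, and without KO2 replicate 2 there were 3 between KO1 and KO2 (2 without KO2 replicate 3). The lowest exact p between the rescue clones was 0.2, at FOXF1 and FOXF2.

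The other 5 loci had close values in WT, KO and rescue. FOXA1 had 2515 to 3150 bases in WT, 2622 to 3006 in KO and 2371 to 3053 in rescue. FOXD1 had 2838 to 3150, 2672 to 3258 and 2414 to 3191. FOXF1 had the fewest of the 5, with 970 to 1219, 798 to 1212 and 831 to 1468. At FOXC2 the ranges were 2949 to 3567, 2630 to 3534 and 2585 to 3535. FOXL1 had 3240 to 3975, 3018 to 3977 and 3062 to 4179. Groups overlapped at each of these loci. Per Mb of list coverage the rescue libraries of FOXD1 lay below WT, again with no share of all loci beside it. The FOXA1 window held an intergenic region at +15.7 kb that had 79 to 143 bases in WT and no peak in KO, with 1 library of each rescue clone holding it.

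None of the 10 loci separated rescue from KO. Of the 10, 0 had all rescue libraries above all KO libraries and 0 below, beside 11.1% and 2.82% of all loci. Against KO2 alone the counts were also 0 and 0, beside 14.4% and 3.98%. FOXF2 had a mean of 2648 bases in KO and 2380 ± 202 in rescue, and FOXQ1 2872 and 2620 ± 382. FOXL1 had 3445 ± 364 in KO and 3756 ± 451 in rescue. The median difference over the 10 loci was 50.1 bases, against 193 over all loci.

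Rescue against WT was not the comparison behind the choice of the genes and was tested. FOXF2 had 2380 ± 202 bases in rescue and 1283 ± 290 in WT, 1.86-fold, higher in 6 of 6 rescue libraries. The exact two-sided permutation test gave p = 0.0238, the smallest that the 84 arrangements allow, and 0.12 after Benjamini-Hochberg adjustment over 19650 loci. No locus of the genome could pass this adjusted test: 9358 loci would need the smallest p, and 3906 had it. Of the 10 loci, 1 had an unadjusted p under 0.05, as did 5363 of all loci. limma on log2(bases + 100) gave FOXF2 a log2 difference of 0.86 ± 0.12 (SE) with an adjusted p of 0.000617. At an adjusted p under 0.05 limma called 3413 of 19547 loci, 2936 higher and 477 lower in rescue. The median log2 difference over these 19547 loci was 0.10, and the bases were not scaled by list coverage. FOXQ1, at 1.29-fold, had an exact p of 0.0714 and an adjusted p of 0.216, and by limma an adjusted p of 0.0989. Without Rescue2 replicate 3 its rescue and WT libraries no longer overlapped. For the other 8 loci the exact p ranged from 0.214 (FOXO1) to 1 (FOXC1). All rescue libraries were above WT at 1 of the 10 loci and below at 0, beside 17.0% and 2.90% of all loci. The test shares the WT and rescue libraries with the comparisons behind the choice of the genes.

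**Figure D3:**
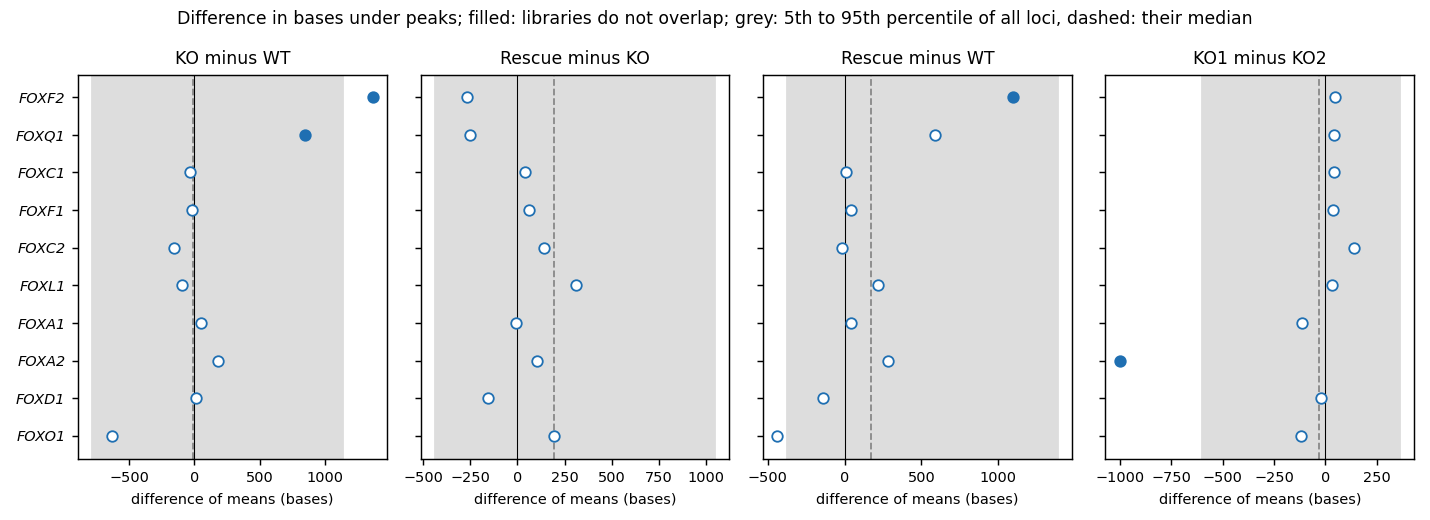
Difference of group means in bases under peaks (x axis) at each locus (y axis) for 4 comparisons. Filled points mark loci whose libraries do not overlap, the grey band spans the 5th to 95th percentile of all 19650 loci and the dashed line is their median. FOXF2, at 1365 bases, lies beyond the band in KO minus WT, as does FOXA2, at -1003, in KO1 minus KO2. FOXO1, at -440, lies just below the band in rescue minus WT.

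In all, 138 merged regions lay in the windows, and 109 held a peak of at least 2 libraries. Of these, 48 had their middle between genes, 46 in introns, 8 in coding exons, 4 in UTRs and 3 in non-coding exons. All 10 genes had a region within 1 kb of the start with a peak in all 15 libraries. No share over all protein-coding genes is given beside this count, so it is not read as particular to these genes. Over the 109, 42 (38.5%) had a peak in every library, beside 35.6% of 295008 such regions of the genome. A region without a peak is one below the calling threshold, and fewer open cells cannot be told apart from less access per cell.

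A region was called gained where all libraries of the first group and none of the second had a peak. KO gained 4 regions (3.67%) against WT, beside 4.79% of the genome's regions, and lost 6 (5.5%), beside 2.48%. In runs of bases, given below, the lost share was instead under that of the genome, at 0.839% beside 1.40%. With lists of 150000 peaks each KO gained 0 and lost 2, and at a −log10 q of at least 4 it gained 2 (FOXF2 +17.2 kb and FOXC1 +1.7 kb) and lost 2. The losses called in both were FOXO1 +68.7 and +68.5 kb. The gains were the FOXC1 region at +1.7 kb, a further intergenic one at +4.1 kb of FOXC1, FOXF2 +17.2 kb and FOXO1 +42.1 kb. The losses were the 4 in FOXO1, FOXA1 +15.7 kb and FOXC1 +7.1 kb. FOXC1 +4.1 kb had 104 to 141 bases in KO and a peak in 2 Rescue1 libraries, and FOXC1 +7.1 kb had 81 to 281 in WT and a peak in 1 Rescue2 library. The KO peaks of FOXC1 +4.1 kb were weak, at the 0.596th to 2.15th percentile of their lists by fold enrichment.

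Rescue gained 1 region (0.917%) against KO, beside 0.910%, and lost 1 (0.917%), beside 1.24%. The loss was FOXC1 +1.7 kb, the only region gained in KO and lost in rescue, beside 0.818% of the genome's regions. The gain was FOXL1 +0.7 kb (chr16:86577005-86577212), in an intron of FOXL1. It had 83, 119 and 97 bases in Rescue1 and 131, 89 and 96 in Rescue2, and no peak in WT, KO1 or KO2. Its median rank by fold enrichment was the 5.33rd percentile. The call ended at a −log10 q of at least 4, with lists of 150000 peaks each, and where at least 50% of the region had to be under peaks. It also ended base by base, as no run of at least 50 bases there was under a peak in all rescue libraries. Against WT, rescue gained 4 regions (3.67%), beside 4.48%, and lost 3 (2.75%), beside 2.09%. With a −log10 q of at least 4 it gained 0, and with lists of 150000 peaks 2, neither of them among the 4 (FOXF2 +14.8 kb and FOXL1 +13.9 kb). Beyond those given, the gains were FOXL1 +8.9 kb, with 113 to 223 bases in rescue, and FOXQ1 +4.6 kb, with 188 to 346. By fold enrichment the rescue peaks of FOXQ1 +4.6 kb ranked at the 2.88th to 8.18th percentile of their lists. Those of FOXL1 +8.9 kb ranked at the 8.42nd to 57.3rd.

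By breadth, KO had more bases than WT without overlap in 11 regions (10.1%), beside 11.4% of the genome, and fewer in 8 (7.34%), beside 8.01%. Rescue had more than KO in 2 (1.83%, beside 4.03%) and fewer in 4 (3.67%, beside 3.31%). Rescue had more than WT in 12 (11%, beside 12.7%) and fewer in 4 (3.67%, beside 6.28%). Of the 6 regions lost in KO, 4 lay in FOXO1.

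Base by base, in runs of at least 50 bases, KO gained 742 bases (1.87% of those under peaks of at least 2 libraries, beside 2.96% in the genome) and lost 333 (0.839%, beside 1.40%). Rescue lost 125 bases against KO (0.315%, beside 0.586%) and gained none, beside 0.456%. The run added by this count and absent from the merged calls of KO against WT was that of FOXF2 at +1.3 to +1.6 kb, together with 88 bases in the coding exon of FOXQ1. The lost regions FOXC1 +7.1 kb and FOXO1 +21.2 kb held no lost run of at least 50 bases.

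**Figure D4:**
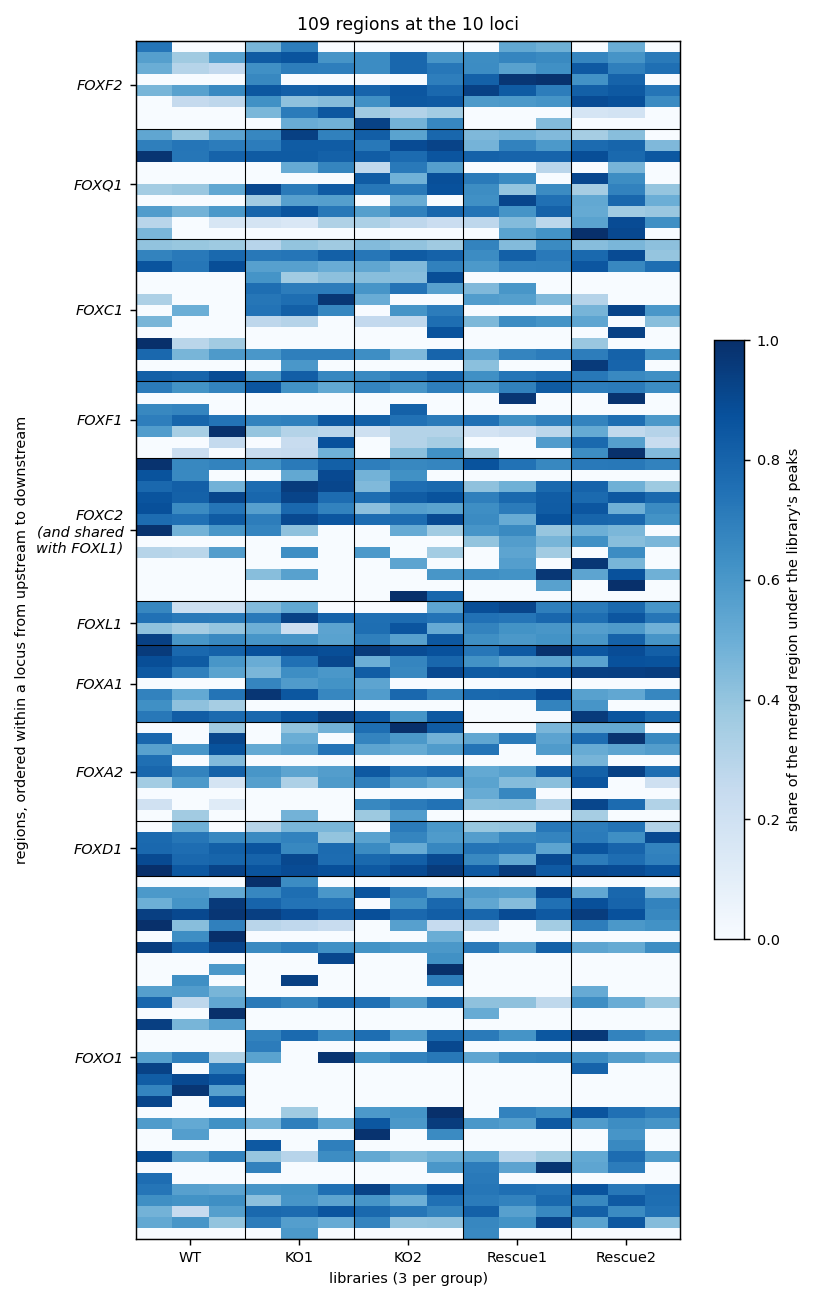
Share of each of the 109 merged regions (rows, grouped by gene) that was under the peaks of each library (columns, 3 per group), from 0 in white to 1 in dark blue. Regions shared by the FOXC2 and FOXL1 windows are drawn once. The 42 regions with a peak in every library have a share above 0 in all 15 columns, though the share varies between libraries and is low in some. Rows filled in WT alone stand out at FOXO1.

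Forkhead motifs were about as frequent at the forkhead genes as over the genome. TGTTTAC and TATTTAC, searched on both strands in 200 bp around the middle of a region, occurred in 6 of the 109 regions (5.5%, 95% Wilson interval 2.55 to 11.5, counting error only), beside 6% of all 295008 regions. Either occurred in 277 of the 2413 regions of the genome gained in KO and lost in rescue (11.5%). None of the 13 called regions of the forkhead loci held either. The 6 were 2 regions at FOXF2 (+7.5 and +18.3 kb), 3 at FOXO1 and 1 at FOXA1. A match of letters is not a bound site.

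The starts of the genes, all but that of FOXA2, had a higher ratio of observed to expected CpG than the median gene. In 1 kb around the start the 10 genes had a median GC content of 68.2% (58.4 to 76.2), against 59.2% over all protein-coding genes. Their median ratio of observed to expected CpG was 0.842 (0.655 to 0.981), against 0.688. FOXA2 had the lowest of both, 58.4% GC and a ratio of 0.655, below the medians of all genes. FOXF2, with 76.2% GC, was the richest in GC and FOXC1 followed with 75.4%. Per kb of window, FOXC1 had the most bases under peaks, 80 per kb over all libraries, and FOXF1 the fewest, 24.1. Of the printed stretches, that of FOXC1 had 81.5% GC, and those of FOXF2 had 67.4% at +1.3 to +1.6 kb, 54% at +7.5 kb and 52.5% at +18.3 kb.

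The other 33 forkhead genes all had a peak in their windows. KO was above WT without overlap at 4 (12.1%) and below at 6 (18.2%), beside 13.3% and 11.9% of all loci, with a median difference of -124 bases, beside -9.25. Rescue was above KO at 2 (6.06%) and below at 1 (3.03%), beside 11.1% and 2.82%, and above WT at 4 (12.1%) and below at 3 (9.09%), beside 17.0% and 2.90%. Both KO against WT and rescue against KO were without overlap at FOXB1, which had 373 ± 51.3 bases in WT, 1566 ± 401 in KO and 272 ± 136 in rescue, and at FOXR2, with 480 ± 71.1, 0 and 159 ± 49.8. Hedgehog signalling, which acts upstream of FOXF and FOXL1 genes, had 0 of 14 loci above and 2 (14.3%) below in KO, with a median difference of 141 bases, beside the same -9.25. Rescue was above KO at 2 (14.3%) and above WT at 1 (7.14%), and below neither at any, read against the shares of all loci just given. The ligand gene IHH had 1712 ± 154 bases in WT, 1155 ± 106 in KO and 1928 ± 103 in rescue, and the effector GLI2 had 12750 ± 1725, 12870 ± 687 and 17469 ± 1677. The 16 FOXO regulators and targets had 1 (6.25%) above and 2 (12.5%) below WT in KO, with a median of 86.2 bases, and none apart between rescue and KO. Rescue was above WT at 1 (6.25%), CDKN1B, a cell cycle inhibitor, and below at 1 (6.25%), SESN3, a stress-induced sestrin. IHH, GLI2, CDKN1B and SESN3 were named after their values were seen.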

How the data were processed

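ATAC-seq libraries of RPTEC were analysed from 15 peak lists, 1 per library and without pooling. The submitters' processing notes name BWA 0.7.17, MACS2 2.2.7.1 and hg38; the study's methods name another BWA version. Filters on duplicate reads and problem regions were not given in the sources used here. The deposited lists give the interval of a peak, the fold enrichment of the summit as a ratio over local background, and −log10 p- and q-values. The lowest deposited −log10 q was 1.3. Ratios were ranked only within a list. Read counts, which the study tested with DiffBind, were not used here, so read depth is unknown and precision was taken from the spread between libraries.

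Peaks on the 24 main chromosomes were kept. Sequences came from the hg38 reference (samtools 1.23.1) and genes from GENCODE 44. Bases under peaks were summed per window with numpy 2.4.6 and pandas 2.3.3 in Python 3.11.15. Regions needed a peak of at least 2 libraries. Rescue against WT and clone against clone were tested by an exact two-sided permutation of libraries, with Benjamini-Hochberg adjustment over all loci. limma 3.58.1 (R 4.3.3) was an alternative. The test was checked on simulated data. Libraries of a clone are not independent clones, so p-values measure only the spread between libraries.

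The members and gene lists were chosen with earlier results of these data known. The rule for named regions took those within 1 kb of a start and, up to 4 per locus, those gained or lost. All 5 gained or lost regions of FOXO1 are given, and the other regions named were chosen after their values were seen. Not every region within 1 kb of a start is given, and those of FOXA1, FOXC2, FOXD1, FOXF1 and FOXO1 are among those left out. Other forkhead genes were named where both KO against WT and rescue against KO did not overlap. Windows, thresholds, list sizes, scaling, clones, libraries, the replicate block and motif windows were varied as alternatives. Some marker genes are not reported here.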

Additional observations from a re-analysis of the deposited data

Results flagged for a closer look

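FOXA2 was singled out because its knockout clones moved in opposite directions from WT. KO1 minus KO2 was -1003 bases under peaks, with all 3 KO1 libraries below and all 3 KO2 libraries above the WT libraries. The share of all loci with the clones on opposite sides of WT is not given, so the flag is not read as particular to FOXA2. KO1 and KO2 did not overlap at 17.9% of all loci. The exact permutation p of the clone difference was 0.1, the smallest possible with 3 against 3. No KO or rescue library stood apart from the other 5 of its condition by Dixon's criterion in the 20 groups examined.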

How the results depend on the processing

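FOXF2 kept more bases under peaks in KO and in rescue than in WT under every window, threshold, list size, scaling and left-out library tried, and no difference without overlap changed sign. By number of peaks KO was above WT at 1 locus and rescue above WT at 0. KO was below WT at 1 locus with equal lists of 150000 peaks (FOXF1), 1 per Mb (FOXO1) and 2 with KO1 alone (FOXA2, FOXO1); rescue was below WT at 2 per Mb (FOXD1, FOXO1). Rescue was above KO1 at 1 locus (FOXA2), Rescue1 below KO at 1 (FOXF2) and Rescue1 above WT at 2 (FOXF2, FOXQ1). limma called 1 locus in place of 0. Between KO1 and KO2, equal lists and numbers of peaks gave 2 loci each. Between Rescue1 and Rescue2 there was 1 with 10 or 50 kb, a −log10 q of at least 4 or equal lists, and 2 by number of peaks. Shares of all loci under these alternatives are not given here, so the counts are not read as particular to these genes.

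Leaving out 1 library gave 2 loci above and 0 to 1 below for KO against WT (FOXO1 without KO2 replicate 3), and 1 to 2 above for rescue against WT (FOXQ1 added without Rescue2 replicate 3). It gave 1 to 3 loci between KO1 and KO2, the most without KO2 replicate 2 (2 without replicate 3), and 0 to 4 between rescue clones, 4 without replicate 3 of either Rescue1 or Rescue2. For regions it gave 4 to 6 gained and 6 to 9 lost in KO, 4 to 6 gained and 3 to 5 lost in rescue against WT (5 without WT replicate 3 or Rescue2 replicate 1), and 1 each for the rest.

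Calls of regions depended more on the settings. With 50 kb, 7 were gained in KO and 8 in rescue against WT. With a −log10 q of at least 4, KO gained 2 and lost 2, and rescue gained 0 against KO and 0 against WT. With equal lists KO gained 0 and lost 2, rescue lost 0 against KO and gained 2 against WT, and 0 regions gained in KO were lost again, so the FOXC1 +1.7 kb call ended there; the 1 region gained against KO was then FOXL1 +13.9 kb, not +0.7 kb. Where at least 50% of the region had to be under peaks, KO gained 2 and lost 2, rescue gained 0 against KO and 2 against WT, and that FOXC1 call ended too (0). The majority rule gave 2 lost in rescue, 7 gained and 5 lost against WT, and 2 gained and then lost (FOXC1 +1.7 kb and FOXF2 +18.3 kb). With KO1 alone rescue gained 2 and lost 2 and 2 were gained and then lost; with KO2 alone KO gained 8; Rescue1 alone lost 3 against KO and 6 against WT, with 2 gained and then lost; Rescue2 alone lost 2, with 2 gained and then lost. Runs of single bases, added after the data were seen, gave 0 gained in rescue against KO. The motif share was 1.83% in 100 bp and 7.34% in 300 bp. Causes were not tested.

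With the replicate number as a block, no locus could pass the test of rescue against WT, even unadjusted. FOXF2 had p = 0.0741 in this exact permutation, the smallest that 27 arrangements allow. Same-numbered libraries of different groups did not deviate together: 0 of 30 pairs had a correlation over 0.1, with a median of 0.00407. Of 15 libraries, 3 correlated best with their own number. These values gave no sign that the numbers pair the samples, but bases under called peaks cannot settle it. Read depth is unknown, and regions such as FOXC1 +1.7 kb rest on peaks of low rank in their lists.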
